A study of Homo sapiens with 4 samples.

Results

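The SSRP1 peak list of the Ewing sarcoma cell line SK-N-MC is described here by itself, across all protein-coding genes. Its members are the unique intervals that the authors called in the SSRP1 library against the input library, on chromosomes 1 to 22 and X of hg19. Lines that repeat an interval were taken as several summits of 1 peak, which left 19855 peaks out of 93355 in the 3 deposited lists. SK-N-MC is an established line, and the labels name no treatment, genotype or time point, so the libraries differ only in their target as far as the labels say. The study profiled SSRP1, FLI1 and H3K27ac (an acetylated histone found at active regulatory elements) by ChIP-seq, with 1 library per target and 1 input library. Chromatin was cut with micrococcal nuclease and then sonicated, per the series' design text. With 1 library per target there was no replicate check and no test, and intervals below are 95% exact binomial (Clopper-Pearson) intervals that cover counting error only. The lists hold no read counts and no peak heights, so the depth behind each peak is unknown.

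SSRP1 and SUPT16H are the subunits of FACT, a histone chaperone that loosens nucleosomes ahead of RNA polymerase II and rebuilds them behind it. FACT also acts in DNA replication and at promoters, and it is known for following transcribed genes rather than for reading a DNA sequence of its own. In Ewing sarcoma the fusion protein EWS-FLI1 binds ETS sites and runs of GGAA repeats, where it opens chromatin and recruits acetylation.

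Sequences from both settings are printed as chosen examples, which do not show how common such places are. The following stretches are gaps between neighbouring SSRP1 peaks that hold a GGAA run inside a FLI1 peak and are at most 300 bp long, chosen for the most copies in the run. Capitals mark the run, read as GGAA or, on the other strand, as TTCC, and all are hg19, plus strand.
GGAA gap 1, chr14:97532330-97532566, plus strand: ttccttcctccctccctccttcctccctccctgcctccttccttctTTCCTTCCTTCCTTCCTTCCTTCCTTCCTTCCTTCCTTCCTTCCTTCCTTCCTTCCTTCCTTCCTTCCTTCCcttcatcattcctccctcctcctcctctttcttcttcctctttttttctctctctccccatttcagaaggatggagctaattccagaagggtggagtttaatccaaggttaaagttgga
GGAA gap 2, chr2:239052968-239053214, plus strand: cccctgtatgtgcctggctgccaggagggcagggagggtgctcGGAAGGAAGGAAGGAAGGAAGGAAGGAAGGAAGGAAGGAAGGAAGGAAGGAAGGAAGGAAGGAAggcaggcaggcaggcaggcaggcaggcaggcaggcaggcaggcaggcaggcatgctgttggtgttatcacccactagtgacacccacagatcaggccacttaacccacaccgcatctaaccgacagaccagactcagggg
GGAA gap 3, chr19:18076786-18076927, plus strand: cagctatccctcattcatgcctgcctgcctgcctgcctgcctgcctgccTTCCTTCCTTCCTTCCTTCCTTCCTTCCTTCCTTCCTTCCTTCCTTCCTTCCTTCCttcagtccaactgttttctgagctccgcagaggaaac
The run of gap 1 has 18 copies and lies 111146 bp from VRK1, the nearest protein-coding gene. The run of gap 2 has 16 copies and lies in intron 3 of KLHL30. The run of gap 3 has 14 copies and lies within the outermost bounds of KCNN1 but outside its canonical transcript. SSRP1 peaks of 732 and 282 bp flank gap 1, peaks of 322 and 370 bp flank gap 2, and peaks of 584 and 873 bp flank gap 3.

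The next stretches are the 200 bp before the transcription start (TSS) of 2 genes whose transcripts were among the most covered, read along the gene, with GC boxes (GGGCGG on either strand) in capitals.
RPS2, chr16:2014828-2015027, minus strand: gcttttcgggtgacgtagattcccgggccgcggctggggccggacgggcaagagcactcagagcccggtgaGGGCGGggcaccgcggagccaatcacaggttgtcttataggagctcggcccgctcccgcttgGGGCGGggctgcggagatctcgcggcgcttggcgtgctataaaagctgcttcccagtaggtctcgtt
ATF4, chr22:39916367-39916566, plus strand: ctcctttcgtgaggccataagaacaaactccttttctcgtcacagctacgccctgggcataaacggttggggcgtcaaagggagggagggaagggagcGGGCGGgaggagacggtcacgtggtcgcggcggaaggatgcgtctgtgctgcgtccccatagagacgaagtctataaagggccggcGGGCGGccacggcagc
At RPS2, which encodes a protein of the small ribosomal subunit, 17 of these 200 bp lay in an SSRP1 peak, while 1694 of the first 2000 bp after the start did. At ATF4, a stress-response transcription factor gene, all 200 did. The same stretch of GAPDH, named below for the share of its transcript covered, had 0 GC boxes and 0 bp in an SSRP1 peak. Over the whole 2 kb upstream of GAPDH, 1336 bp lay in a peak.

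The peaks were narrow and few. Their widths ran from 282 to 8821 bp, with a median of 403 bp and quartiles of 316 and 585 bp, and together they covered 10.2 Mb, or 0.337% of the sequence. The FLI1 list had 36305 peaks (median 283 bp) and the H3K27ac list 37195 (median 653 bp). Density over chromosomes ran from 1.06 peaks per Mb on X and 1.57 on chromosome 10 to 26.7 on chromosome 19. Genes with a peak within 2 kb of the TSS made up 10.2% on X (8.31 to 12.5), 13.3% on chromosome 10 (11 to 16) and 49.1% on chromosome 8 (45.3 to 52.8), and between 28.4% and 40.6% on the other chromosomes. The cell type labels were checked on marker genes. Of 6 Ewing sarcoma markers 5 had an SSRP1 peak at the start (CCK, NKX2-2, NR0B1, PRKCB and STEAP1), where 33.5% of all genes had one, and all 6 had H3K27ac there, which 56.0% of all genes did. Of 23 markers of other cell types 0 had either at the start, and 1, the blood-cell gene PTPRC, had an SSRP1 peak within the gene.

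Along the strand of transcription, SSRP1 peaks lay above all just after gene starts. Each peak was placed by its midpoint relative to the canonical transcripts of 20098 protein-coding genes. The first 2 kb of genes held 4738 peaks, or 23.9% (23.3 to 24.5), in 1.22% of the sequence, which is 19.6 times the share of sequence. The 2 kb upstream held 2553 peaks, or 12.9% (12.4 to 13.3), at 10.4 times its share of sequence, and a further 495 lay in the first 2 kb of a gene and upstream of another. Gene bodies, meaning transcripts without their first and last 2 kb, held 5205 peaks or 26.2% (25.6 to 26.8), and 5133 or 25.9% (25.2 to 26.5) lay between genes, both below their share of sequence at 0.693 and 0.451 times. In FLI1 peaks the first 2 kb held 6.60% (6.34 to 6.86) and the 2 kb upstream 6.91% (6.65 to 7.18), so the FLI1 list showed no excess after the start. In H3K27ac peaks these shares were 19.9% (19.5 to 20.3) and 10.3% (10.0 to 10.6).

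At the 3' ends of genes the SSRP1 list held more of its peaks than either other list. The last 2 kb of transcripts held 906 peaks, 4.56% (4.28 to 4.86), and the 2 kb beyond the end held 825, 4.16% (3.88 to 4.44), which were 3.81 and 3.74 times their shares of sequence. For FLI1 the corresponding shares of peaks were 1.68% (1.55 to 1.81) and 1.95% (1.81 to 2.09), and for H3K27ac 1.70% (1.58 to 1.84) and 1.60% (1.47 to 1.73). By covered sequence the last 2 kb and the 2 kb beyond the end were nearly equal in the SSRP1 list, which had 76.3 bp per kb in the first 2 kb, 44 upstream, 14.7 in the last 2 kb, 14.8 beyond the end, 2.24 in the body and 1.5 between genes. By this measure H3K27ac was above SSRP1 at the 3' end, with 18.7 bp per kb in the last 2 kb and 20.0 beyond the end. FLI1 was below it, with 6.23 and 7.88.

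The profile around the TSS was lopsided. Over all genes the most covered 100-bp bin was 100 to 200 bp after the TSS, where 19.4% of bases lay in an SSRP1 peak. Coverage averaged 12% over the 200 bp before the TSS and 18.0% over the 200 bp after it. Over 2 kb on each side, the covered bp after the TSS were 1.57 times those before it. The ratio was 0.920 for FLI1 and 1.29 for H3K27ac. Among the 8098 genes with no other protein-coding gene within 5 kb, it was 1.98 for SSRP1, 1.04 for FLI1 and 1.56 for H3K27ac, and the SSRP1 maximum lay 200 to 300 bp after the TSS at 17.9%. With the outermost gene start in place of the canonical one the SSRP1 ratio was 2.00.

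**Figure D1:**
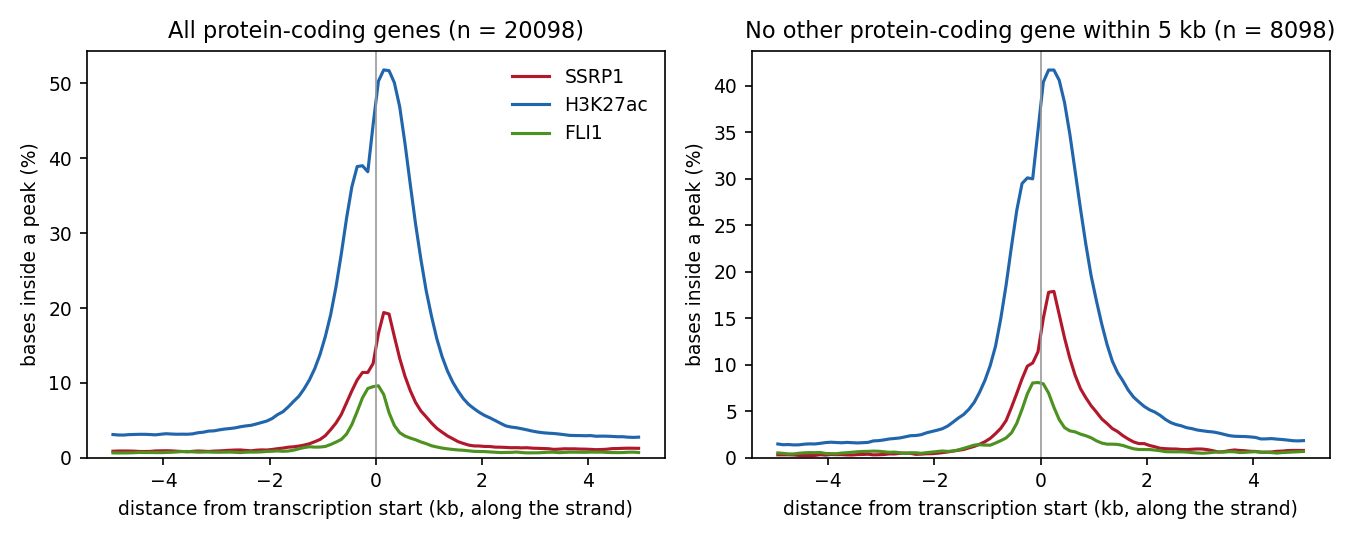
Share of bases inside a peak (vertical axis, %) in 100-bp bins from 5 kb before to 5 kb after the transcription start (horizontal axis, kb along the strand), for the SSRP1, H3K27ac and FLI1 lists, over all 20098 protein-coding genes and over the 8098 with no other protein-coding gene within 5 kb. SSRP1 coverage peaks at 19.4% at 100 to 200 bp after the start of all genes, while FLI1 coverage peaks at the start itself.

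Counted by genes of at least 6 kb, 4745 of 16151 had an SSRP1 peak in the first 2 kb, or 29.4% (28.7 to 30.1), where the share over all protein-coding genes was 27.8%. Upstream it was 24.1% (23.4 to 24.7; all genes 23.1%), in the body 18.2% (17.6 to 18.8; all genes 15%), in the last 2 kb 5.29% (4.95 to 5.65; all genes 5.63%) and beyond the end 8.12% (7.71 to 8.56; all genes 9.15%). In 8652 of these genes, 53.6%, none of the parts had a peak. The parts were often marked together. A single peak that crosses the TSS or another boundary marks the parts on both sides, so some of this is built in. Counting only peaks with at least 20% of their length inside, the upstream share was 20.3% in place of 24.1%. With a peak in the first 2 kb, 62.0% of genes had one upstream (60.6 to 63.3), 29.0% in the body (27.7 to 30.3), 8.75% in the last 2 kb (7.96 to 9.59) and 12.4% beyond the end (11.5 to 13.4). Without one, these shares were 8.32%, 13.7%, 3.86% and 6.35%. Peaks in upstream and first 2 kb alone were the commonest combination, in 1815 genes, ahead of the first 2 kb alone in 1153 and the body alone in 1034. A single peak across the TSS is enough to give that commonest combination.

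Starts with SSRP1 were GC-rich. A start was called GC-rich when the 500 bp on each side had at least 55% GC and a ratio of observed to expected CpG of at least 0.6, which held for 12007 genes. Of these, 47.9% had a peak within 2 kb of the TSS (47.0 to 48.8), against 12.1% of the other starts (11.4 to 12.9). The top bin of the start profile stood at 29.0% for GC-rich starts and 5.04% for the others. Divergent genes, with another TSS on the opposite strand within 1 kb upstream, had a peak at 43.4% of starts (41.1 to 45.7) and all other genes at 32.5% (31.8 to 33.2). The median GC content of SSRP1 peaks was 61.3%, against 55% in adjoining sequence of the same length, and 82.3% of peaks (81.8 to 82.8) were above their own surroundings. By position, the median was 68.9% in the first 2 kb, 66.2% upstream, 60.1% in the last 2 kb, 57.3% in gene bodies and 56.7% between genes. The median ratio of observed to expected CpG was 0.795 in peaks of the first 2 kb and 0.281 in peaks of gene bodies. The part of GC content in the shares by position was not tested.

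A set of 11 short motifs was counted by exact letters on both strands, in the central 300 bp of peaks and in promoters from 250 bp before to 50 bp after the TSS. They were the GC box, TATA box, CCAAT box, ETS core and AP-1 site described here, the CRE, NRF1, E-box and YY1 motifs, the B box of tRNA genes, and runs of at least 4 GGAA. No motif string contains another. GC boxes (GGGCGG) were in 84.0% of the 4246 promoters that overlapped an SSRP1 peak (82.8 to 85.1), in 54.8% of those that did not (54.0 to 55.6) and in 61.0% of all promoters. Among GC-rich starts the difference was smaller, 87.0% (85.9 to 88.1) against 80.8% (80.0 to 81.7). TATA boxes (TATAAA) were in 4.71% of promoters with SSRP1 (4.09 to 5.39), 11.2% without (10.7 to 11.7) and 9.82% of all, and at GC-rich starts in 4.09% and 4.08%. CCAAT boxes, named for their letters, were less frequent with SSRP1 in both comparisons, at 30.8% (29.4 to 32.2) against 37.3% (36.5 to 38.0), and at GC-rich starts 30.4% (28.9 to 31.9) against 36.1% (35.1 to 37.2), with 35.9% of all promoters. ETS cores (CCGGAAG) were in 16.5% with SSRP1 (15.4 to 17.6), 13.4% without (12.8 to 13.9) and 14.0% of all, but at GC-rich starts the order turned, 17.2% (16 to 18.5) against 18.9% (18.1 to 19.8). AP-1 sites (TGANTCA) were in 2.83% with SSRP1 (2.35 to 3.37), 6.13% without (5.76 to 6.52) and 5.43% of all promoters, and at GC-rich starts in 2.58% (2.10 to 3.14) and 2.97% (2.61 to 3.36). A match describes letters and not a bound site.

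Within transcripts, SSRP1 peaks covered exons more densely than introns. First exons were covered at 188 bp per kb, first introns at 8.72, internal exons at 10.7, internal introns at 2.27 and last exons at 11.9. Single-exon transcripts were covered at 58.4 bp per kb. More than 2 kb from the TSS, internal exons stood at 8.01 bp per kb and internal introns at 2.23, and last exons at 11.4. There the FLI1 list had 5.36, 3.77 and 5.37, and the H3K27ac list 14.5, 8.10 and 16.9. In both other lists internal exons were also covered more densely than internal introns.

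Peaks at 3' ends were fewer where no other gene lay near. In genes of at least 6 kb with no other protein-coding gene within 5 kb (6578 genes), only 2.30% had an SSRP1 peak in the last 2 kb (1.95 to 2.69) and 3.12% beyond the end (2.71 to 3.57). In the same genes H3K27ac had 2.4% (2.05 to 2.80) and 2.81% (2.43 to 3.24), and FLI1 had 3.51% (3.08 to 3.99) and 3.86% (3.41 to 4.36). Counted by genes, SSRP1 and H3K27ac also differed little over all genes, at 5.63% and 5.59% in the last 2 kb and 9.15% and 9.12% beyond the end. With no annotated gene of any type within 5 kb (1772 genes), an alternative chosen after the data were seen, the SSRP1 shares were 2.37% (1.71 to 3.19) and 2.71% (2.00 to 3.58). Peaks at 3' ends were less often acetylated than peaks at starts. Of the peaks in the last 2 kb, 28.3% met an H3K27ac peak by at least 20% of either (25.3 to 31.3), and of those beyond the end 34.8% (31.5 to 38.1), against 86.6% (85.6 to 87.5) in the first 2 kb. Neither H3K27ac nor FLI1 met 66.0% of the peaks in the last 2 kb (62.8 to 69.1), 58.8% of those beyond the end (55.3 to 62.2) and 11.3% of those in the first 2 kb (10.4 to 12.3).

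Cytoplasmic ribosomal protein genes and a list of housekeeping genes had SSRP1 peaks past their ends more often than the share of all genes. Of the 79 cytoplasmic ribosomal protein genes, which encode the proteins of the ribosome, 25, or 31.6% (21.6 to 43.1), had a peak in the last 2 kb (all genes 5.63%) and 46, or 58.2% (46.6 to 69.2), in the 2 kb beyond the end (all genes 9.15%). In their last 2 kb 17 had H3K27ac, 21.5% (all genes 5.59%). H3K27ac peaks lay beyond the end of 16 of them, 20.3% (all genes 9.12%), and FLI1 peaks of 15, 19.0% (all genes 6.01%). The list of 32 housekeeping genes known for very high transcription, such as those of actin, tubulin and glycolysis, had SSRP1 in the last 2 kb of 13 and beyond the end of 22, or 68.8% (50.0 to 83.9), against the same 5.63% and 9.15% of all genes. H3K27ac lay beyond the end of 4 of them, 12.5% (3.51 to 29.0; all genes 9.12%). Before the end H3K27ac was denser than in all genes. Over the 2 kb before the end of the listed genes it covered 30.1% of bases in the first 250-bp bin (all genes 3.99%) and 9.49% in the last (all genes 3.68%). Some listed transcripts are short, such as ACTB (3454 bp) and GAPDH (3855 bp), where the median of all genes was 22732 bp. Bins before the end can then lie near the start, and acetylation of the start was not told apart from that of the end. Over all 8098 genes with no other protein-coding gene within 5 kb, SSRP1 lay beyond the end of 3.51% and H3K27ac of 3.41%. SSRP1 lay beyond the end of 7 of 11 such housekeeping genes and H3K27ac of 0, and of 4 of 14 such ribosomal protein genes and H3K27ac again of 0. In the profile by 250-bp bins, coverage of ribosomal protein genes was 14.4% in the first bin beyond the end and 35.5% at 500 to 750 bp. Coverage of the housekeeping list was 15.6% in the first bin and 46.3% at 750 to 1000 bp. Over all 20098 genes SSRP1 coverage was 2.47% in the first bin and 3.21% at 750 to 1000 bp. Transcript levels were not measured in these files.

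**Figure D2:**
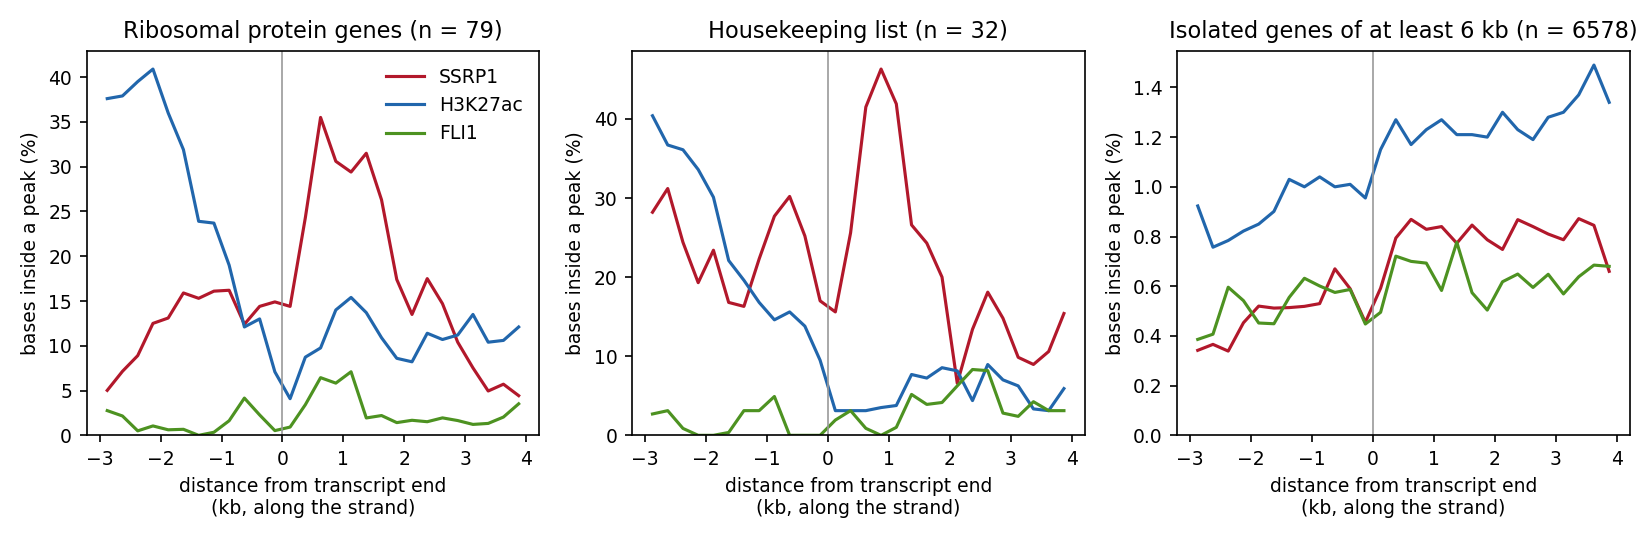
Share of bases inside a peak (vertical axis, %, with a scale of its own in each panel) in 250-bp bins from 3 kb before to 4 kb after the transcript end (horizontal axis, kb along the strand), for the SSRP1, H3K27ac and FLI1 lists. SSRP1 coverage reaches 35.5% beyond the ends of 79 ribosomal protein genes and 46.3% beyond those of 32 housekeeping genes, neither limited to isolated genes. It is at most 0.872% in 6578 isolated genes of at least 6 kb, and at most 3.21% over all 20098 genes.

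The 3 most covered ribosomal protein genes are given as examples. RPL3, of the large subunit, had 434 bp covered upstream, 726 bp in the first 2 kb, 82 bp in the last 2 kb and all 2000 bp of the stretch beyond its end. RPS19, of the small subunit, had 395 bp in the first 2 kb, 1158 bp in the last 2 kb and 1358 bp beyond the end. RPS2 had 1694, 769 and 1640 bp in these parts, but its transcript is short. Its last part is only what is left after the first 2 kb, which is less than 2 kb. Covered sequence ran across or past the end in all 3. They were chosen by a total that includes these parts, so they do not show how common this is in the family. In the housekeeping list, GAPDH had 1842 bp beyond its end, TUBB (a tubulin) 1263 bp and ACTB (cytoplasmic actin) 1363 bp.

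Per gene, 8767 of 20098 had at least 1 bp of an SSRP1 peak in the transcript with 2 kb on each side, 43.6%. The median covered length in these was 716 bp, with quartiles of 400 and 1274 bp, and 126 genes had over 5000 bp. A peak can count for more than 1 gene where windows overlap. Of genes under 5 kb, 30.1% had a peak (28.6 to 31.7), and the share rose with transcript length to 55.1% of genes of 100 kb or more (53.3 to 56.9). The body was covered less in longer genes, at 9.93 bp per kb in genes of 5 to 20 kb and 1.48 in genes of 100 kb or more. The first 2 kb had a peak in 20.5% of the shortest class (19.1 to 21.9) and 34.4% of the longest (32.8 to 36.1).

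BCL11B, a zinc finger transcription factor gene on chromosome 14 (99635624 to 99738534, minus strand), was covered most. Its transcript with 2 kb on each side held 59 SSRP1 peaks and 38989 bp, of which 35996 bp lay in the body. The next gene, SAMD11, had 18392 bp. In 10-kb steps from the TSS, SSRP1 covered between 2303 and 5776 bp in each of the first 10 steps. Over the same gene, H3K27ac covered 34389 bp and FLI1 2120 bp. Of the 57 SSRP1 peaks within the transcript 32 met an H3K27ac peak and 4 a FLI1 peak, and the median width was 589 bp. H3K27ac lay mostly in the first 10 kb (9770 bp) and between 70 and 90 kb (5822 and 6683 bp), with 434 bp at 50 to 60 kb, where SSRP1 covered 2709 bp.

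**Figure D3:**
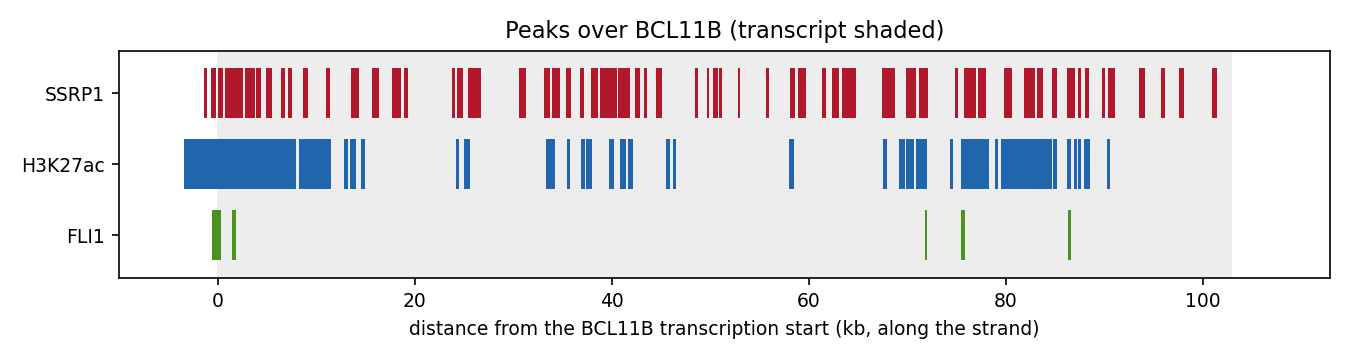
Peaks of the SSRP1, H3K27ac and FLI1 lists over BCL11B as filled bars, by distance from its transcription start (horizontal axis, kb along the strand), with the transcript shaded. SSRP1 peaks run over the whole transcript, 57 in all, while the 5 FLI1 peaks lie near the start and between 70 and 90 kb.

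Other genes with the most covered sequence differed in how much of the transcript lay in peaks. Some had 50.5% or more of it covered. They included SAMD11 (78.2% of the transcript) and CCND1, the cyclin D1 gene (83.0%; 14199 bp with flanks). MDFI, an inhibitor of myogenic factors (70.2%; 14148 bp), had 12 separate peaks with flanks. The ephrin receptor gene EPHB3 (50.5%; 12466 bp) had 16. Others were long and carried many separate peaks in the body. RXRA, a nuclear receptor gene, had 24 peaks and 15406 bp, none of it in the 2 kb before or after the TSS. SEPTIN9 had 23 peaks and 13291 bp, all in the body. ZC3H3 had 21 peaks and 11883 bp. Others of the 15 most covered genes were ADGRA2, BAHCC1, MACROD1, PDCD6-AHRR, RARA and IRS2, with 11041 to 13550 bp each. PDCD6-AHRR is a read-through transcript, so its peaks also belong to its component genes.

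By share of the transcript covered, short genes led. GAPDH, a glycolytic enzyme gene, had 99.5% of its transcript in peaks, ARHGDIA 96.0%, and RAB26, a vesicle-traffic gene, 95.8%. ZNF703 (90.8%), the citrate carrier gene SLC25A1 (90.6%), RPS2 (88.9%), the ubiquitin ligase gene STUB1 (88.9%), LENG9 (86.7%), MFSD3 (86.6%) and ATF4 (86.5%) followed. In genes of at least 6 kb, the last 2 kb was covered throughout in PRR7 and SSBP4 (2000 bp each), and by 1944 bp in TRIM41 and in PPAN-P2RY11, a read-through transcript. MED16, of the Mediator complex, had 1870 bp there, DGAT1, of triglyceride synthesis, 1868 bp, ZNF335 1806 bp and DOT1L, a histone H3 methyltransferase gene, 1798 bp. LSR (1753 bp) and GLI4 (1748 bp) complete these 10. At DOT1L the first 2 kb held 342 bp, at ZNF335 33 bp and at LSR 0 bp. Among genes without a protein-coding neighbour within 5 kb, chosen after their values were seen, TRMT61A had 1877 bp beyond the end and CUL1, a ubiquitin ligase scaffold gene, 1538 bp.

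The genes of FACT itself differed. SSRP1 (chromosome 11, 57093462 to 57103366, minus strand) had 3 peaks and 1220 bp, with 310 bp in the first 2 kb and 856 bp beyond the end. SUPT16H (chromosome 14, 21819635 to 21852178, minus strand) had 67 bp of 1 peak beyond its end and 0 bp elsewhere, while H3K27ac covered 2219 bp around it. Of 13 genes of FACT and other histone chaperones, 10 had a peak between 2 kb upstream and the transcript end, where 41.4% of all genes did. CHAF1A, the large subunit of chromatin assembly factor 1, led with 1619 bp, followed by NASP, a chaperone of H3 and H4, with 1289 bp. SUPT16H, SUPT6H and ATRX were the members with no peak in that window.

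Several summits were reported for 2274 peaks, 11.5% (11 to 11.9), and 512 of them had at least 3. The share was 4.15% (3.94 to 4.36) in the FLI1 list and 33.8% (33.3 to 34.3) in the H3K27ac list. By position it was 17.1% in the first 2 kb (16 to 18.2), 16.4% upstream (15 to 17.9), 14.4% beyond the end (12.1 to 17.0), 11.7% in the last 2 kb (9.68 to 14.0), 8.34% between genes (7.60 to 9.13) and 6.63% in the body (5.97 to 7.34). Most of this went with width. In the widest 20% of peaks 52.3% had several summits and in the narrowest 20% 0 of 3971, and the median width was 468 bp in the first 2 kb and 370 bp in the body. Within the widest 20%, the share was still 56.4% in the first 2 kb (53.7 to 59.1) and 44.4% in the body (40.7 to 48.2), with median widths of 904 and 846 bp. Among peaks of 700 to 1000 bp the lists were closer, at 40.8% for SSRP1 (38.6 to 43.0), 45.6% for FLI1 (42.5 to 48.7) and 32.6% for H3K27ac (31.3 to 33.9).

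The peak with most summits, 16, was the widest of the list and covered 8821 bp of CCND1. A peak of 12 summits covered 5426 bp of IRS2, the gene of an insulin receptor substrate. The next were 2 peaks of 9 summits, 5413 and 4980 bp wide, upstream of SAMD11, and 1 of 8 summits, 5004 bp wide, in GPSM1. At the other extreme, the widest peaks with 1 summit are given with their place by midpoint. They were 1908 bp at the start of ARHGEF26, 1895 bp in the last 2 kb of ZNF335, 1829 bp in ABI3 and 1720 bp at the start of ASXL1, a Polycomb-related gene. The next, of 1634 bp, overlapped the histone gene H3C15, and its midpoint lay 824 bp after the TSS, beyond the end.

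Gene families were set beside the 41.4% of all genes with a peak between 2 kb upstream and the transcript end. Of 61 families, 15 had an interval wholly above that share, 15 wholly below and 31 around it. Covered lengths given for members are those of the transcript with 2 kb on each side. Members of clustered families can share a peak, so their counts are not of separate sites. GC-rich starts made up 59.7% of all genes, and their share is given beside some of the families since they go with the peaks. In this window 55.3% of genes with a GC-rich start had a peak (54.4 to 56.2), against 20.8% of the others (19.9 to 21.7). The intervals of several families counted as above, such as Polycomb and HOX genes, hold this 55.3%. The part of GC content in these counts was not tested.

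Among the highest shares were those of cholesterol synthesis, housekeeping, immediate early, SRSF, HNRNP and UBE2 genes. Other metabolic and RNA-processing families were around the background, such as NDUF genes of respiratory complex I with 23 of 47 and DDX and DHX helicase genes with 23 of 53, and CYP genes were below it with 14 of 56. Of 18 cholesterol synthesis and uptake genes, 17 had a peak, 94.4% (72.7 to 99.9), with 94.4% GC-rich starts. SREBF2, the regulator of the pathway, had 2300 bp and FDPS, of isoprenoid synthesis, 1573 bp, and MVD alone had none. Of the 32 housekeeping genes, 27 had a peak in this window, 84.4% (67.2 to 94.7). Of 24 immediate early genes, which respond within minutes to growth signals, 20 had one (83.3%, 62.6 to 95.3). IER2 had 3939 bp and the AP-1 subunit gene JUND 1637 bp. SRSF genes, which encode splicing factors, had a peak in 10 of 12, all in the first 2 kb, and only SRSF5 and SRSF8 had none. HNRNP genes, of other RNA-binding proteins, had one in 19 of 24 (79.2%, 57.8 to 92.9), led by HNRNPA1 with 3170 bp, HNRNPAB with 2451 bp and HNRNPH1 with 2357 bp. UBE2 genes, of ubiquitin-conjugating enzymes, had one in 27 of 34 (79.4%, 62.1 to 91.3), led by UBE2S with 2416 bp, UBE2G2 with 2400 bp and UBE2H with 2204 bp.

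Among chromatin and translation families, the Polycomb, HOX, histone and cytoplasmic ribosomal protein genes stood above as well. Polycomb genes had a peak in 14 of 19 (73.7%, 48.8 to 90.9). PCGF3 had 5584 bp and CBX6 4119 bp. HOX genes, the segment identity factors, had one in 27 of 39 (69.2%, 52.4 to 83.0), led by HOXC5 with 3097 bp and HOXB13 with 2540 bp. Ribosomal protein genes had one in 48 of 79 (60.8%, 49.1 to 71.6) and replication-dependent histone genes in 35 of 63 (55.6%, 42.5 to 68.1). These histone genes had a median covered length of 1782 bp where present, though the median transcript was 487 bp, and only 22.2% of their starts were GC-rich. H3C14 led them with 3824 bp. Their neighbours lie close, so 1 peak can count for several, and reads from near-identical copies may be placed at any of them. Mitochondrial ribosomal protein genes were around the background, with 31 of 78 (39.7%, 28.8 to 51.5), although all 78 had H3K27ac at the start, as all 79 cytoplasmic ones did.

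Signalling and adhesion genes above the background included EPH and EFN genes, the ephrin receptors and ligands, with 15 of 22 (68.2%, 45.1 to 86.1). EPHB3 led them with 12466 bp, followed by EPHA2 with 3228 bp and EPHB4 with 2832 bp. WNT and FZD genes, the Wnt ligands and receptors, had 19 of 29 (65.5%, 45.7 to 82.1), led by WNT10A with 2922 bp, WNT9A with 1647 bp and FZD2 with 1478 bp. H3K27ac lay at the start of 12 of these 29 and SSRP1 of 18. Clustered protocadherin genes, of neuronal adhesion, had 37 of 53 (69.8%, 55.7 to 81.7) but at the start of only 3. All 22 gamma-cluster genes hold the same 5 peaks and 3953 bp, in and beyond the part of the locus that they share. With 1 member kept for each shared set of peaks, an alternative chosen after the data were seen, this family and the histone genes no longer stood above. The EWS-FLI1-activated genes, 25 of 30 (83.3%, 65.3 to 94.4), were listed with earlier results of these libraries known, so their count is not independent evidence. BCL11B, CCND1 and FCGRT (6370 bp) led them.

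Families with few or no peaks included olfactory and taste receptor, keratin and skin barrier, interferon, chemokine and cancer-testis genes. Of 414 olfactory receptor genes, 4 had a peak, 0.966% (0.264 to 2.46): OR1F1 (872 bp), OR6J1 (669 bp), OR6C4 (329 bp) and OR9Q1 (282 bp). Bitter taste receptor (TAS2R) genes had 0 of 24 (upper limit 14.2%), LCE and SPRR genes of the skin barrier 0 of 30 (11.6%) and type I interferon genes 0 of 17 (19.5%). Keratin-associated protein genes had 1 of 94, defensin genes 1 of 45 and the cancer-testis genes of the MAGE, GAGE and SSX families 1 of 52, all of which lie on chromosome X. Keratin genes had 3 of 55, KRT15, KRT31 and KRT80, each with 282 bp, the narrowest width in the list. Interleukin and chemokine genes had 8 of 83 (9.64%, 4.25 to 18.1), led by IL6 with 647 bp, CXCL2 with 495 bp and IL37 with 491 bp. GC-rich starts were at most 13.3% in all of these families. Zinc finger (ZNF) genes differed in that 70.2% had GC-rich starts and 335 of 476 had H3K27ac at the start, yet 140 had an SSRP1 peak, 29.4% (25.4 to 33.7). Potassium channel genes, with 61.7% GC-rich starts, had 29 of 94 (30.9%, 21.7 to 41.2), and glutamate and GABA receptor genes, with 54.3%, had 11 of 46 (23.9%, 12.6 to 38.8).

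**Figure D4:**
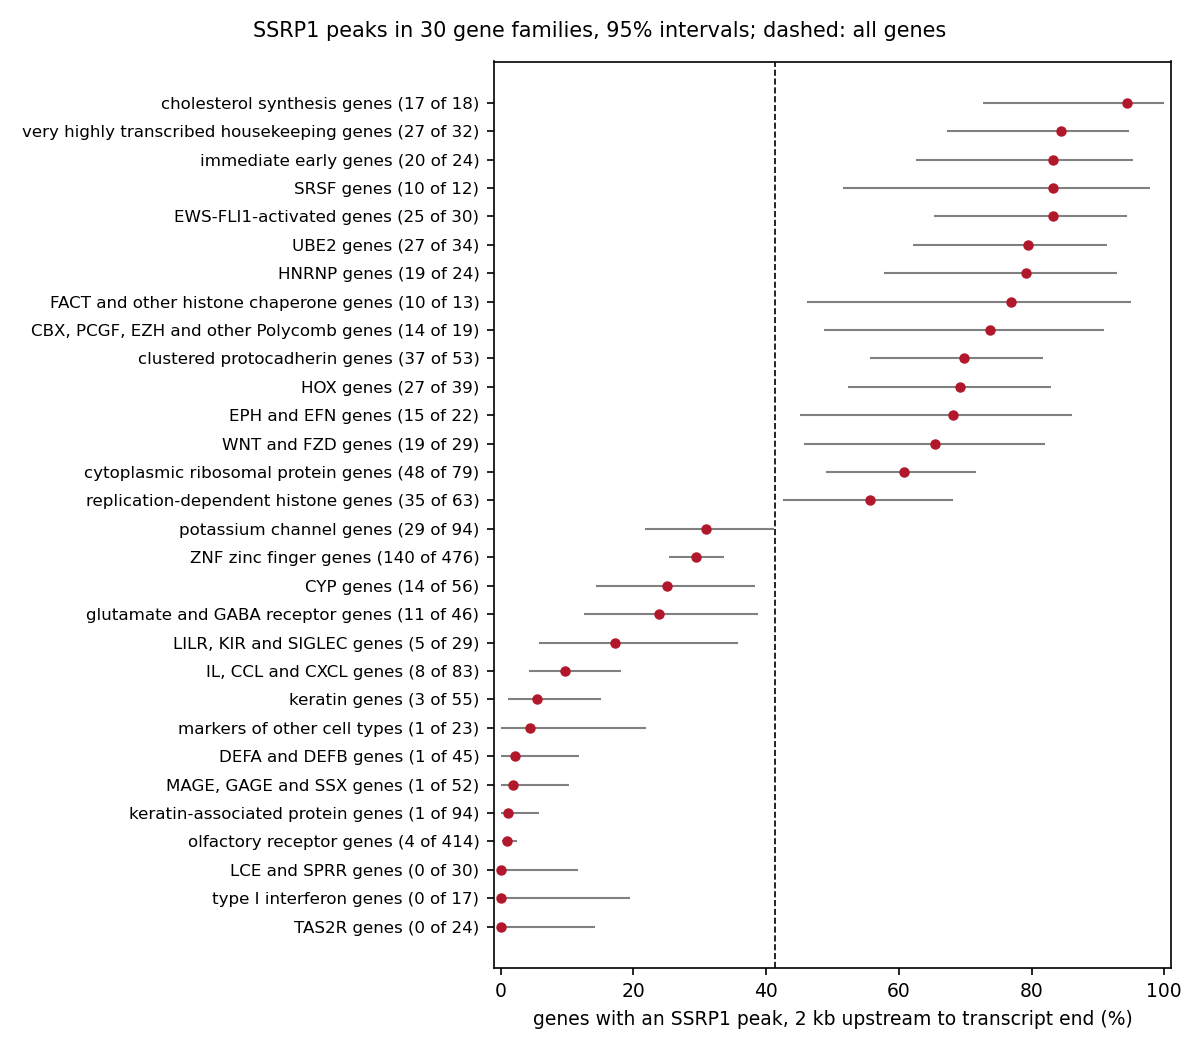
Share of genes with an SSRP1 peak between 2 kb upstream and the transcript end (horizontal axis, %) in the 30 families whose 95% exact binomial interval (bars) lay wholly above or below the share of all genes (dashed line, 41.4%). Points are families, with the number of genes with a peak and of all members beside each name. Cholesterol synthesis genes are highest with 17 of 18, and the TAS2R, LCE and SPRR, and type I interferon genes are at 0.

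SSRP1 peaks seldom held a GGAA run at their centre and more often had one in adjoining sequence, as at the gaps printed above. Most runs had no SSRP1 peak near: of 16275 runs, 25 lay inside one, 530 had one within 500 bp on 1 side (3.26%) and 76 on both (0.467%). Runs of at least 4 copies were found in the central 300 bp of 8 of 19855 peaks, 0.0403% (0.0174 to 0.0794), and in 341 of 39710 adjoining windows of 300 bp, 0.859% (0.770 to 0.954). Averaged over 100-bp bins, 0.0126% of SSRP1 peaks had a run within 100 bp of the midpoint, 0.368% at 300 to 500 bp and 0.0735% at 1000 to 1500 bp. FLI1 peaks had 0.778% within 100 bp and 0.0972% at 1000 to 1500 bp. H3K27ac peaks had a low centre too, 0.0538%, with 0.409% at 300 to 500 bp. Of 1464 runs inside FLI1 peaks, 21 lay inside an SSRP1 peak, 1.43% (0.890 to 2.18), 328 had an SSRP1 peak within 500 bp on 1 side, 22.4%, and 63 on both sides, 4.30% (3.32 to 5.47). For H3K27ac these numbers were 257 inside, 252 on 1 side and 660 on both. Of 14811 runs outside FLI1 peaks, 4 lay inside an SSRP1 peak and 202 had one within 500 bp on 1 side, 1.36%.

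**Figure D5:**
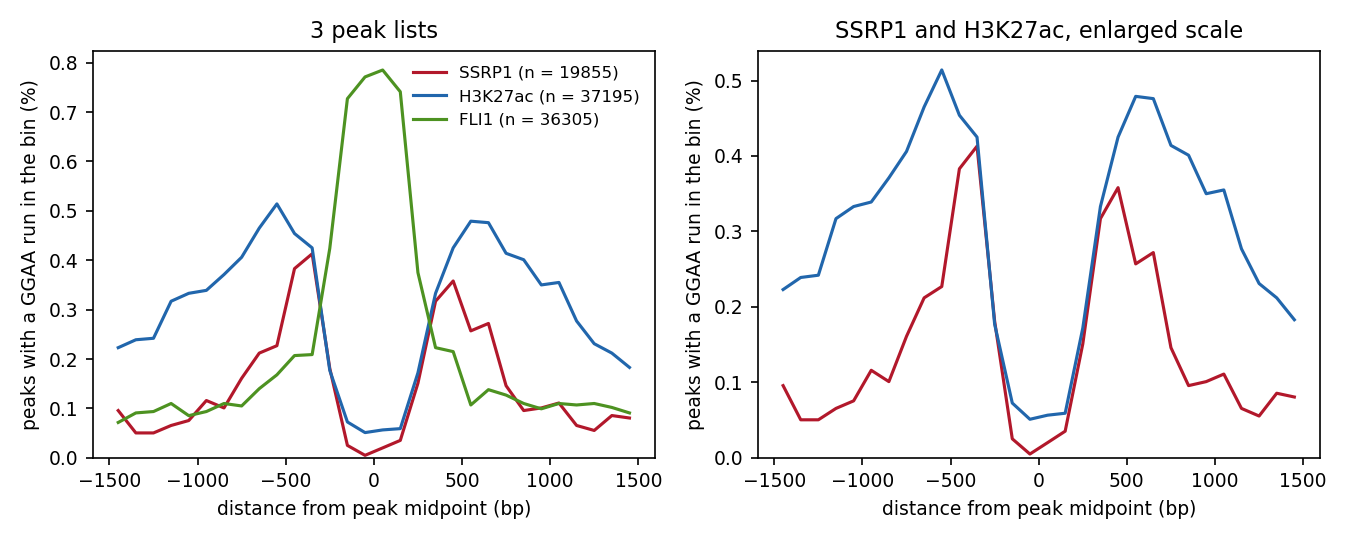
Share of peaks with a run of at least 4 GGAA (vertical axis, %) in 100-bp bins by distance from the peak midpoint (horizontal axis, bp), for the 3 lists and, on an enlarged scale, for SSRP1 and H3K27ac alone. FLI1 peaks hold runs at their centre (0.778% within 100 bp), and SSRP1 peaks have fewest there (0.0126%) and most at 300 to 500 bp.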

How the data were processed

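ChIP-seq of SSRP1, FLI1 and H3K27ac in SK-N-MC cells was represented by 3 deposited peak lists, 1 per target, which hold start and end coordinates and a name for each peak, with no height, q-value or read count. Per the series' design text and the submitters' processing notes, the authors used Bowtie2 with default settings and the hg19 build, and MACS2 2.2.7.1 with the input as control and a q-value threshold of 0.05. Duplicate and artefact filters are not given in the sources used here, and the input library itself was not analysed here. Each library was called separately, so list length and width also depend on its depth, which is unknown.

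Lines that repeat an interval were merged to 1 peak, and chromosomes 1 to 22 and X were kept. Genes were 20098 protein-coding genes of GENCODE 44 mapped to GRCh37, with the canonical transcript (the gene bounds for 279 without one), and sequences were read from GRCh37. A gene part counted as marked at 1 bp of overlap. In transcripts too short for both, the last 2 kb was cut to what is left after the first 2 kb. Shares carry 95% Clopper-Pearson intervals. No test was made, as each target has 1 library. The functions were tested on simulated peaks: 200 of 200 planted peaks fell in the planted gene part. Members, lists and families were chosen with earlier results of these data known. Named genes were the 15 most covered, the 10 with the largest share of the transcript covered, the 10 of at least 6 kb with most bp in the last 2 kb and in the body, the 5 peaks with most summits, the 5 widest with 1 summit, and in each family described the 3 most covered members, the members without a peak where at most 3, or with one where at most 5. Values of some single genes are not reported here. Alternatives were other gene bounds, part sizes, overlap, isolated genes, wide intervals only, and no chromosomes 3, 8, 10 and X. Printed gaps and promoters leave out chromosome 8. Versions were samtools 1.23.1, pysam 0.24.0, matplotlib 3.10.9, scipy 1.17.1, pandas 2.3.3 and numpy 2.4.6 under Python 3.11.15.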

Additional observations from a re-analysis of the deposited data

Results flagged for a closer look

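The SSRP1 list holds 100 peaks that no comparison above used, since they lie off chromosomes 1 to 22 and X: 93 on unplaced or alternative contigs and 7 on chromosome Y. No number of such peaks was predicted, so the count is given without a comparison.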

How the results depend on the processing

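No paired analysis was possible because each target has 1 library. With 1 kb parts, 20.6% of peaks lay in the first part of genes, 2.90% in the last and 29.1% between genes, and with 5 kb parts 26.8%, 5.99% and 21.5%. With the outermost gene start and end, 23.2% lay in the first 2 kb and 22.1% between genes, the ratio of covered bp after to before the TSS was 2.00, and the median covered length was 743 bp. With only intervals at or above the median width, used since the list gives no peak strength, 29.5% lay in the first 2 kb and 22.2% between genes, 22.9% had several summits, and 20.1% and 5.31% of genes of at least 6 kb had a peak in the first 2 kb and beyond the end. Without chromosomes 3, 8, 10 and X, 25.2% of peaks lay between genes and these shares of genes were 30.7% and 9.06%. With 1 kb parts they were 28.4% and 5.46%, and with at least 20% of the peak inside the part 28.5% for the first 2 kb. For isolated genes the share beyond the end was 3.12%, the ratio 1.98 and the median covered length 676 bp. With no gene of any type within 5 kb, added after the data were seen, the shares were 23% and 2.71%. In the central 300 bp, 73.4% of peaks had more GC than adjoining sequence. Over the 5 alternatives for families, 13 or 14 of the 15 above the background stayed above, and 12 to 15 of the 15 below stayed below, 1 of which had no member left without the 4 chromosomes. The protocadherin genes left the upper group when only the start was counted, the histone genes when 20% of the peak had to lie inside, and both with 1 member per shared set of peaks. The wider intervals took the SRSF and the histone chaperone genes out of it, and leaving out the chromosomes the histone and the WNT and FZD genes. CYP genes and glutamate and GABA receptor genes left the lower group with the start only, with the wider intervals and without the chromosomes. Potassium channel genes left the lower group with the wider intervals. Depth is unknown for these lists, so a gene without a peak may lie below the authors' threshold.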

Other observations

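Several other families had an interval that held the background of 41.4%. Collagen genes, of the extracellular matrix, had a peak in 24 of 44 (54.5%, 38.8 to 69.6), in the body of 16 and in the first 2 kb of 14, where 15% and 27.8% of all genes had one. Collagen transcripts are long, with a median of 143520 bp. Glycolysis genes had one in 11 of 18 (61.1%, 35.7 to 82.7), and beyond the end in 38.9% (all genes 9.15%). NDUF genes, of respiratory complex I, had 23 of 47 (48.9%, 34.1 to 63.9), and COX genes, of complex IV, 7 of 25 (28.0%, 12.1 to 49.4), while H3K27ac lay at the start of 47 and 19 of them. CCT chaperonin genes, which fold actin and tubulin, had 6 of 9 (29.9 to 92.5) and E2F genes, of cell cycle control, 6 of 8 (34.9 to 96.8). Proteasome genes had 19 of 48 (39.6%, 25.8 to 54.7) and forkhead genes 21 of 46 (45.7%, 30.9 to 61.0).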
